A study of Mus musculus with 4 samples.

Results

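The cells described here are putative newborn astrocytes of the mouse hypothalamus at the day of birth (P0). They were chosen by raw counts of unique molecular identifiers (UMIs, which count captured mRNA molecules) in the second P0 run. A cell was taken when its UMIs of Aqp4 and Aldh1l1 summed to at least 2, when it had at least 2 UMIs of Slc1a3, at most 1 of Rax, at most 1 of Foxj1, and 0 of Pdgfra. This gate held 1090 cells, out of 9628 in that run, 12080 in the P0 sample and 43261 in the series. The share of the run was 11.3%, with an exact binomial (Clopper-Pearson) 95% interval of 10.69 to 11.97%. The gate genes chose the cells, so their levels are descriptions and support nothing.

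Astrocytes are the glial cells that clear glutamate and GABA from around synapses, buffer potassium, supply lipid and glutamine to neurons, and wrap blood vessels with endfeet. They arise from radial glia after neurons, in the step from neurogenesis to gliogenesis, for which Notch signalling, the SOX9 and NFI transcription factors, and BMP and STAT3 signalling are known. In the hypothalamus radial glia also give rise to tanycytes, elongated cells lining the third ventricle that keep the homeobox gene Rax, and to multiciliated ependymal cells, which need Foxj1. The gate limits those types by Rax and Foxj1, of which it still allows 1 UMI each, and oligodendrocyte precursors by Pdgfra. Among the members 60 had a Rax UMI and 185 a Foxj1 UMI.

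The study followed hypothalamic neuroepithelium through development in C57BL/6J mice carrying Rax-CreERT2 and the Ai14 reporter. Cre is active only after tamoxifen and only in cells that express Rax, and it switches on tdTomato permanently, so all groups hold descendants of cells that expressed Rax near the time of injection. Every animal received tamoxifen at embryonic day 9 (given as E9 in the design text and E9.5 in the protocol), and live tdTomato+ cells were sorted. One sample each was taken at E11, E14, P0 and P7, by the titles, while the age labels give E11.5, E14.5, P0 and P7.5. The oldest sample is called P7 here. Groups in the comparisons were P0 run 2, P0 run 1 and P7, all of that genotype and treatment, and a cell without Rax history was not sorted, so astrocytes of other origin were not sampled.

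With 1 sample per age there is no replicate, no test was possible, and no p-value is given. Levels are UMIs of a gene over all UMIs of the pooled cells of a group, scaled to 1000000 (CPM). Their 95% intervals are exact Poisson intervals that cover counting error only, not differences between animals, litters or runs. A gene was counted as higher or lower when (CPM + 5) differed at least 2-fold, among genes whose mean CPM over the 2 groups was at least 10. Higher and lower describe these libraries and no tested change.

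The runs differed in ways that touch these results. The members of run 2 had a median of 9920.5 UMIs (3468 to 35581) and 3827 genes. The same gate held 319 of 2452 cells in P0 run 1 (13.0%, 11.7 to 14.4%), with a median of 6011 UMIs, and 1301 of 8917 cells at P7 (14.6%, 13.9 to 15.3%), with a median of 9517 UMIs. The gate counts raw UMIs, so at lower depth it asks for a higher level, and with every cell thinned to 2500 UMIs it held 410 cells of run 2. Run 2 held cells of both sexes: among members, 563 cells had UMIs of Y-linked genes only, 332 had Xist only, 73 had both and 122 had neither. The gate in run 1 had 0 cells with Xist and the gate at P7 had 1, so the comparison with P7 was repeated on the Y-linked members, and its values are given for run 1 as well. Of the barcodes of all 9628 cells of run 2, 43 recurred in E14 run 2, 20 at P7 and 1 in P0 run 1, and of these 10, 1 and 0 were members'. The doublet caller marked 41 members (3.76%, against 1.49% of all cells of the run), and 150 members (13.8%) carried at least 5 UMIs of Stmn2 and Snap25. Only 22 members lacked a tdTomato UMI.

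The label was checked on markers. Of the 5 genes given for these cells, Aqp4 and Aldh1l1 belong to the gate, and the other markers were high. Fabp7, the brain fatty acid-binding protein of radial glia and young astrocytes, stood at 20760 CPM and had at least 1 UMI in all 1090 cells. Slc4a4, the sodium bicarbonate cotransporter, stood at 1119 CPM, and Tnc, the matrix protein tenascin C, at 245 CPM. The same genes were at 136, 5.51 and 1.33 CPM in cells of the run gated as neurons (4669 cells with at least 10 UMIs of Stmn2 and Snap25, without Slc1a3 or Pdgfra). A Fabp7 UMI was also found in 99.7% of oligodendrocyte precursors of the run (at least 2 UMIs of Pdgfra). The share was 92.5% in tanycytes (at least 2 UMIs of Rax) and 75.8% in those neurons. The presence of a Fabp7 UMI thus does not set the members apart. Agt, Gfap and S100b were low, at 75.8, 115 and 25.6 CPM, against 1346, 479 and 203 CPM at P7. The early astrocyte genes of the label were thus present, and the later markers were at a fraction of their P7 level.

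Genes of other cell types were summed over their lists. The 7 microglial markers gave 1.57 CPM (Aif1 at 0), 6 endothelial markers 5.20 CPM (Ly6c1 at 0), 5 fibroblast markers 13.1 CPM and 6 erythroid markers 13.4 CPM. The 9 neuronal markers summed to 710 CPM, against 641 CPM in the run 1 gate and 854 CPM at P7. The 8 tanycyte markers summed to 331 CPM, against 1355 CPM in the tanycyte gate of the run. The 6 oligodendrocyte precursor markers summed to 587 CPM in members and 45.2 CPM in tanycytes. In oligodendrocyte precursors of the run, taken by at least 2 UMIs of Pdgfra, they summed to 3706 CPM. The tanycyte list holds Rax and this list Pdgfra, genes that chose the gates. Part of the contrasts with 1355 and 3706 CPM was therefore fixed in advance. Olig1 and Olig2 made up most of the members' sum, and Sox10, which oligodendrocyte lineage cells keep, was at 0.496 CPM. The 6 radial glial markers summed to 3180 CPM, above the 2583 CPM of tanycytes, the 2161 CPM of the run 1 gate and the 2276 CPM of the P7 gate, so these markers do not set the members apart from radial glia. The 6 mural markers summed to 19.6 CPM, against 1.51 CPM in the cells gated as neurons. The 6 oligodendrocyte markers summed to 159 CPM, against 127 CPM in those neurons. The 7 ependymal markers, of which the gate limits Foxj1, summed to 58.5 CPM. They summed to 6.18 CPM in those neurons and 124 CPM in the tanycyte gate.

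Each of Aqp4, the endfoot water channel, and Aldh1l1, the folate enzyme, was taken as enough. Both were present in 620 members, Aldh1l1 alone in 389 and Aqp4 alone in 81. Aqp4 ranged from 0 to 82 UMIs per cell with a median of 1, and Aldh1l1 from 0 to 28 with a median of 3. At P7 the medians were 5 and 3, and at P0 in run 1 they were 1 and 2.

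Fabp7, Slc4a4 and Hes5 were lower just outside the threshold than just inside. Cells with exactly 1 UMI of Aqp4 and Aldh1l1 that met every other criterion, just outside the gate, numbered 350, and cells with exactly 2, just inside, numbered 249. Fabp7 was 10873 CPM outside and 14372 CPM inside, Slc4a4 641 and 915 CPM, Hes5 759 and 853 CPM, and Gfap 21.4 and 23.1 CPM. Along the whole scale from 0 UMIs to 8 or more, Fabp7 went from 4500 to 26331 CPM and Slc4a4 from 277 to 1291 CPM, higher in each bin than in the one before. Pla2g3, a secreted phospholipase, went from 3.14 CPM at 0 UMIs to 39.6 CPM at 4 to 7 UMIs and 305 CPM at 8 or more, and Selenom, a selenoprotein of the endoplasmic reticulum, from 124 to 478 and 1636 CPM, both also higher in each bin than in the one before. Gfap was flat up to the last bin. It lay between 21.4 and 27.2 CPM in every bin up to 4 to 7 UMIs and was 288 CPM in the 297 cells with 8 or more. The median depth of the last bin was 12775 UMIs, against 8996 for cells at 0. Deeper cells pass a raw count more easily, and the part of depth in these levels was not tested.

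**Figure D1:**
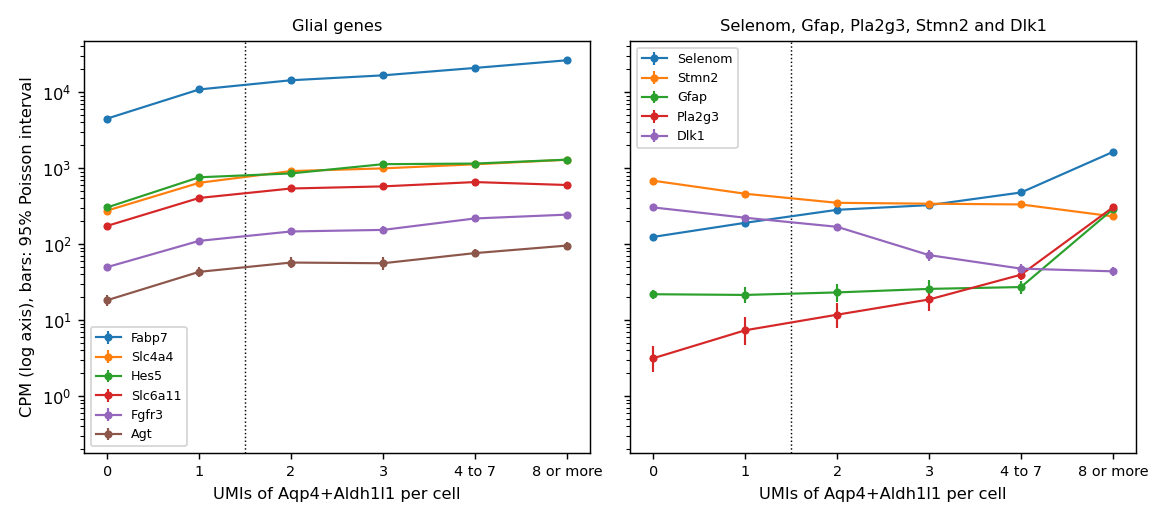
CPM on a log axis (vertical) of 11 genes in P0 run 2 cells that meet the other gate criteria, by UMIs of Aqp4 and Aldh1l1 per cell (horizontal). Points are pooled cells with 95% Poisson intervals, and the dotted line is the gate. Fabp7 goes from 4500 to 26331 CPM in steps, while Gfap stays at 21.4 to 27.2 CPM up to 7 UMIs and reaches 288 CPM above.

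The nearest comparison within the run was with 816 cells that met every other criterion but had 0 UMIs of Aqp4 and Aldh1l1 (the Slc1a3 gate, median 8996 UMIs). This gate was chosen by counts alone and its cells were not typed. Its radial glial markers summed to 2481 CPM, below the 3180 CPM of the members. Against them 275 of 9829 genes were higher in the astrocyte gate (2.8%) and 185 lower (1.88%). The contrast is that of the gate itself, so these values are a description. It was also computed from the cells of run 1, where 88 of 9359 genes were higher (0.94%) and 57 lower (0.609%). Of the 275 genes, 54 were called higher in run 1 too, 19.6% of the first list and 61.4% of the second, and 260 of the 262 that could be tested there had the same sign. Of the 185 lower genes 22 were lower there too, 11.9% of the first list and 38.6% of the second.

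Astrocyte function genes were higher as a group. Of 39 genes on a list of mature astrocyte functions, 36 could be tested, 27 were higher and 0 lower, with a median log2 ratio of 1.40 against −0.05 over all genes. Slc1a2, the main glutamate transporter of mature astrocytes, was 529 CPM in members and 140 CPM in the Slc1a3 gate. Aldoc, the aldolase of astrocytes, was 593 and 196 CPM. Sparcl1, or hevin, a secreted synapse-acting protein, was 1880 and 369 CPM. In run 1 the same list had 8 higher and 0 lower of 37 tested, with a median of 0.73, so the direction was shared and the number was not.

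The genes with the largest ratios were of several kinds. Pla2g3 led at 121 against 3.14 CPM (27 UMIs in the Slc1a3 gate), and in run 1 it was 352 against 31.6 CPM. Selenom followed at 808 against 124 CPM. Fgfbp3, which binds fibroblast growth factors, was 451 against 84.5 CPM, and Ncan, the matrix proteoglycan neurocan, 1274 against 249 CPM. Scd1, a fatty acid desaturase, was 60.3 against 8.03 CPM. Gabbr2, a GABA-B receptor subunit, was 182 against 33.7 CPM, Car2, a carbonic anhydrase, 41.9 against 5.01 CPM, and Pla2g7, which breaks down platelet-activating factor, 373 against 76.7 CPM.

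Transmitter uptake genes were mostly higher in run 2 and mostly not called in run 1. Of 14 genes 13 could be tested in run 2, 9 were higher and 2 lower, with a median log2 ratio of 1.42. Over all genes 2.8% were higher and 1.88% lower. In run 1, 2 of 12 were higher and 1 lower, with a median of 0.60, beside 0.94% and 0.609% of all genes. Slc6a11, the GABA transporter GAT3, was 601 CPM against 174 CPM, and Slc6a9, the glycine transporter, 106 against 22.5 CPM. Glul, which makes glutamine, was 329 against 120 CPM. Slc38a1, a glutamine transporter of neurons, was lower at 38.3 against 149 CPM, as was the AMPA receptor subunit Gria1, at 17.6 against 41.1 CPM.

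Of the 2 metabolic lists, that of cholesterol synthesis and efflux had the more calls. All 19 of its genes could be tested, and 7 were higher, Apoe among them, and 0 lower, with a median log2 ratio of 0.89. Over all genes 2.8% were higher. In run 1, 2 of 19 were higher (Msmo1 and Abca1) and 0 lower, with a median of 0.78, beside 0.94% of all genes higher. Hmgcs1, at the start of the mevalonate pathway, was 885 against 412 CPM, and Cyp51 and Msmo1, which demethylate sterols, were 305 against 147 CPM and 363 against 153 CPM. Apoe, the lipid carrier of astrocytes, was 7296 against 3143 CPM. Of 16 genes of glycogen, lactate and fatty acid use 15 could be tested, and 5 were higher, among them Ppp1r3c, a glycogen-targeting phosphatase subunit, at 78.4 against 32.0 CPM, which was also the 1 gene of 15 higher in run 1.

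Precursor genes were lower, and neuronal genes were lower in run 2. All 4 tested of 6 intermediate progenitor markers were lower, among them Dll1, a Notch ligand, at 5.78 against 44.6 CPM, Insm1 at 6.61 against 34.6 CPM, and Hes6 at 42.9 against 169 CPM. In run 1, 2 of 3 tested were lower, beside 0.609% of all genes there and 1.88% in run 2. Tesc, a calcium-binding protein, was 3.14 against 65.0 CPM, the homeobox gene Gsx1 3.88 against 47.4 CPM, and the crystallin gene Crybb1 0.909 against 26.7 CPM. Cdkn1c, the cell cycle inhibitor p57, was 58.1 against 260 CPM and Dlk1, a Notch-like membrane protein, 74.1 against 304 CPM. Rph3a, Tac1 and Hrk, which are expressed in neurons, were at 8.26, 6.61 and 7.85 CPM against 48.9, 39.7 and 43.4 CPM. Of 9 neuronal markers 5 were lower, with a list sum of 710 against 1585 CPM. In run 1, 0 of 8 tested were lower, with sums of 641 against 1005 CPM. The Slc1a3 gate had 212 of 816 cells with 5 or more neuronal UMIs (26.0%), against 13.8% of members. Its erythroid markers summed to 636 CPM, against 13.4 CPM in members. In run 1 they summed to 9360 CPM in the Slc1a3 gate and 399 CPM in the astrocyte gate. The part of these other RNAs in the lower calls was not tested as such, and without called doublets and cells with 5 or more neuronal UMIs the counts were 249 higher and 135 lower.

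Radial and immature glial genes divided. Of 22 genes 21 could be tested, 9 were higher and 1 lower, with a median log2 ratio of 0.66. Over all genes 2.8% were higher and 1.88% lower in this comparison. In run 1, 1 of 19 (Tnc) was higher and 1 lower, with a median of 0.26, beside 0.94% and 0.609% of all genes. The higher genes were Hes5, Fabp7, Tnc, Ptprz1, Hopx, Igfbp2, Mfge8, Ednrb and Metrn, with Ptprz1, a receptor phosphatase, at 5411 against 1745 CPM and Ednrb at 759 against 295 CPM. Other genes of radial glia were not called. Vim was 1169 CPM in members and 1471 CPM in the Slc1a3 gate, Nes 136 and 125 CPM, Sox9 602 and 474 CPM, and Sox2 665 and 526 CPM. Nfia, which drives the gliogenic switch, was 607 and 631 CPM, and none of 16 cell cycle genes was called. Olig1 was 388 and 432 CPM and Olig2 165 and 221 CPM, genes best known from the oligodendrocyte lineage.

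**Figure D2:**
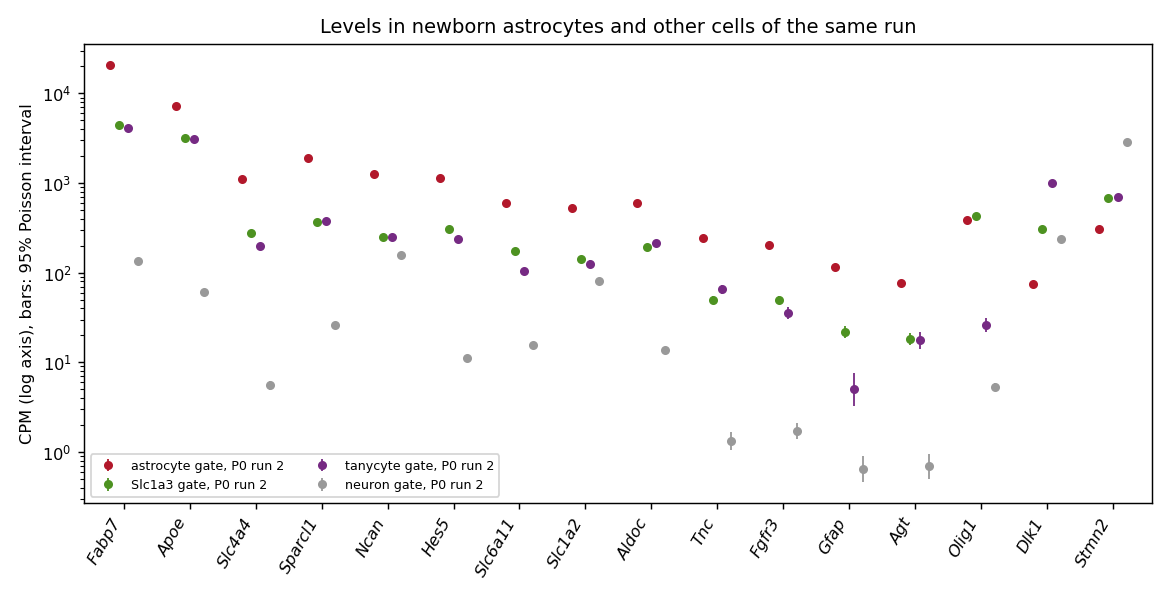
CPM on a log axis (vertical) of 16 genes (horizontal) in 4 gates of P0 run 2, with 95% Poisson intervals. Fabp7 is 20760 CPM in the astrocyte gate and 4500 CPM in the Slc1a3 gate, Dlk1 is 74.1 and 304 CPM, and Olig1 is low in the tanycyte gate at 26.3 CPM.

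In Notch signalling a ligand on one cell binds the receptor on its neighbour, which is then cut by proteases of the receiving cell, and the freed receptor domain works with RBPJ at target promoters such as those of the Hes and Hey genes, which hold glia and progenitors in an undifferentiated state. Of 12 genes 11 could be tested, 4 were higher and 1, the ligand Dll1, lower, beside 2.8% of all genes higher and 1.88% lower. In run 1, 0 of 11 were higher and 1, again Dll1, was lower. The receptor Notch3 was 90.6 against 28.9 CPM, while Notch1 was 222 against 172 CPM. Among targets Hes5 was 1137 against 305 CPM, Hey1 56.2 against 14.21 CPM and Nrarp, a feedback inhibitor, 151 against 47.7 CPM. Hes1 was 203 against 260 CPM and was not called. In run 1 Hes5 was 1101 against 583 CPM, below 2-fold. With each cell thinned to 2500 UMIs, Hes5 was detected in 81.0% of members, 79.0% of the run 1 gate, 75.6% of the P7 gate, 36.2% of the Slc1a3 gate, 25.8% of the tanycyte gate and 2.83% of the neuron gate. Outside the astrocyte gates it was also detected in 66.9% of run 2 cells with exactly 1 UMI of Aqp4 and Aldh1l1. The share was 55.8% in the run 1 Slc1a3 gate and 52.0% in run 2 oligodendrocyte precursors. Without thinning the share of members was 94.8%.

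The Hes5 promoter is shown because Hes5 was among the Notch targets higher in members. It covers the 250 bases before the gene's start at chr4:154960673-154960922 on the forward strand of GRCm38.p6, from RefSeq. Capitals mark matches to GTGGGAA, the core letters of the known RBPJ motif, searched on both strands.
Hes5: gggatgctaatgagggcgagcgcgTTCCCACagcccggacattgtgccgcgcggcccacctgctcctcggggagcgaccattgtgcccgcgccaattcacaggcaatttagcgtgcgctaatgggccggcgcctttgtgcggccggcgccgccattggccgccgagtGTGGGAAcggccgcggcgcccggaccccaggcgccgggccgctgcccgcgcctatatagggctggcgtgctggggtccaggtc
The 2 matches begin at −226 and −83 from the start and lie on opposite strands. At least 1 match was found in 1779 of 32851 promoter windows of that length (5.42%), and 0 in the window of Nrarp. The windows of Hes1 and Hey1 were not available and were not searched. These are letters in a window and not measured binding.

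BMP proteins act through receptor kinases on SMAD factors, and LIF-family cytokines through STAT3. Of 20 BMP and LIF-STAT3 genes 17 could be tested and 4 were higher, beside 2.8% of all genes: the receptor Bmpr1b (61.4 against 19.3 CPM), the BMP target Id3 (860 against 325 CPM), and the cytokine receptors Lifr (96.4 against 34.7 CPM) and Cntfr (34.2 against 13.97 CPM). In run 1, 4 of 16 tested were higher (Bmpr1b, Id1, Id2 and Id3) and 0 lower, beside 0.94% of all genes higher. Of 20 FGF, EGF, Sonic hedgehog and Wnt genes 17 could be tested, 2 were higher and 1, Lef1, lower, with a median log2 ratio of 0.23, and in run 1 0 of 15 were called. Fgfr3, an early astrocyte receptor, was 202 against 49.8 CPM. Ptch1, the Sonic hedgehog receptor and target, was 557 against 265 CPM, while Gli3, an effector of the same pathway, was 28.6 against 43.4 CPM. In run 1 Fgfr3 was 253 against 129 CPM and Ptch1 424 against 292 CPM, both below 2-fold.

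The comparison with age sets newborn astrocytes beside those of P7. Against the same gate at P7, 348 of 9750 genes were lower in the members (3.57%) and 189 higher (1.94%). With the Y-linked members in place of all, 372 were lower and 194 higher. For run 1 against P7 the numbers were 682 lower (7.12%) and 327 higher (3.41%) of 9583. These comparisons share the P7 cells, so they are set side by side and not counted against each other.

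Mature function genes were lower at birth. Of 38 tested genes on the list, 24 were lower and 0 higher in run 2, with a median log2 ratio of −1.34 against 0.02 over all genes. In run 1, 25 were lower and 3 higher (the metallothioneins Mt1, Mt2 and Mt3), with a median of −1.44 against −0.10. Gpr37l1, an orphan receptor of astrocytes, had 115 UMIs in run 2, 32 in run 1 and 5949 at P7, which is 43.9-fold higher in CPM at P7 than in run 2 (36.5 to 53.2). Agt, the precursor of angiotensin peptides, was 75.8, 136 and 1346 CPM in the same order, which is 17.8-fold higher at P7 than in run 2 (16.6 to 19.0) and 9.90-fold higher than in run 1 (8.88 to 11.08). Both runs at birth were far below P7 for these genes.

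Of 13 tested genes of the endfoot complex and gap junctions, 5 were lower at P0 than at P7 in run 2 and 5 in run 1, and 0 were higher in either, beside 3.57% of all genes lower in run 2 and 7.12% in run 1. Of the genes of transmitter uptake and glutamine, 7 of 13 were lower in run 2 and 8 of 12 in run 1, and 0 higher. Gja1, connexin 43, was already 299 CPM in run 2 and 322 CPM in run 1, against 824 CPM at P7. Gjb6, connexin 30, had 2 UMIs among all members, 10 in run 1 and 468 at P7. Slc7a10, a D-serine and glycine transporter, was 61.8, 77.5 and 510 CPM, and Slc6a11 601, 744 and 1960 CPM. Cldn10, a claudin, was 45.7, 124 and 407 CPM, and Ntsr2, a neurotensin receptor, 14.7, 59.3 and 243 CPM, with run 1 between run 2 and P7 for both. Cxcl14, a chemokine, was 4.96, 26.1 and 137 CPM, and Hsd11b1, which regenerates active glucocorticoid, 1.49, 7.46 and 52.0 CPM. Slc4a4 was 1119, 421 and 1410 CPM, not called in run 2 and lower in run 1. The gate gene Aldh1l1 was 338, 308 and 357 CPM, levels that the gate bears on in each group.

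After thinning to 2500 UMIs, Agt was detected in 17.1% of members, 24.8% of run 1 and 83.4% of the P7 gate, and in 0.236% of P0 neurons. Gpr37l1 was detected in 3.12%, 2.82% and 58.4% of the 3 gates, S100b in 4.68%, 6.90% and 39.4%, and Gja1 in 48.8%, 46.4% and 81.2%. Gfap was detected in 8.53%, 16.6% and 22.1%, and the intervals of run 1 (12.7 to 21.2%) and P7 (19.9 to 24.5%) overlapped. For Fabp7 the shares were 99.8%, 100% and 98.8%. Without thinning the members' shares of Agt and Gfap were 38.5% and 15.6%.

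Some of the genes lower at P0 are known from other cells. Avp and Ghrh, neuropeptide genes of neurons, were 45.0 and 3.06 CPM in members against 448 and 59.98 CPM at P7. Avp was detected after thinning in 13.1% of members (median depth 9920.5 UMIs) in 14.6% of P0 tanycytes (8448 UMIs) and in 11.54% of P0 neurons (11038 UMIs), and at P7 in 24.1% of the astrocyte gate (9517 UMIs) and 27.5% of neurons (17616 UMIs). The share was 7.84% in P0 oligodendrocyte precursors (8786 UMIs) and 6.27% in the run 1 astrocyte gate (6011 UMIs). The part of free RNA in these shares was not tested, and the shares are not read as expression. The oligodendrocyte markers Mbp, Cnp and Bcas1 were lower at P0 too, and their list of 6 summed to 159 CPM in members, 222 CPM in run 1 and 434 CPM at P7. Their part in the calls was not tested.

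Some genes were higher at P0 than at P7 in both runs, and how many were so was not counted. Hes1 was 203 CPM in run 2, 247 CPM in run 1 and 74.8 CPM at P7, and the BMP target Id1 was 405, 329 and 151 CPM. Sfrp1, a secreted Wnt antagonist, was 134, 108 and 44.8 CPM. Ptx3, a soluble pentraxin, was 42.5, 32.3 and 4.91 CPM, Cp, the iron oxidase ceruloplasmin, 57.3, 26.1 and 8.69 CPM, Tspan18, a tetraspanin, 49.8, 53.5 and 9.04 CPM, and Pdlim3, an actin-associated protein, 59.1, 48.1 and 12.1 CPM. Fezf2, a forebrain factor, was 24.5, 31.1 and 9.25 CPM. For these genes both runs were above P7.

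Cell cycle genes depended on the run. Of 16 genes, 9 were higher in run 2 than at P7 and 0 lower, but 1 of 15 (Hmgb2) was higher in run 1. Over all genes 1.94% were higher in run 2 and 3.41% in run 1, so the count in run 1 was near its background. Mki67, the proliferation antigen, was 208 CPM in run 2, 36.5 CPM in run 1 and 58.0 CPM at P7, and Prc1, a spindle protein, 172, 29.8 and 44.6 CPM. The histone genes Hist1h1b, Hist1h1e and Hist1h2ae, which have close copies and so uncertain counts, were 65.3, 109 and 44.7 CPM in run 2 and 1.24, 2.90 and 4.14 CPM in run 1, against 4.98, 12.3 and 4.55 CPM at P7. Nes was 136, 30.3 and 29.9 CPM, and Cdh4, a cadherin, 100, 52.2 and 25.3 CPM. After thinning, 25.05% of members had a UMI of any of 6 cell cycle genes, against 18.2% in run 1, 14.99% at P7 and 2.98% of P0 neurons. The unthinned share of members was 39.5%. The order of run 1 and P7 in these shares goes against the CPM of Mki67, so none is read from it.

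**Figure D3:**
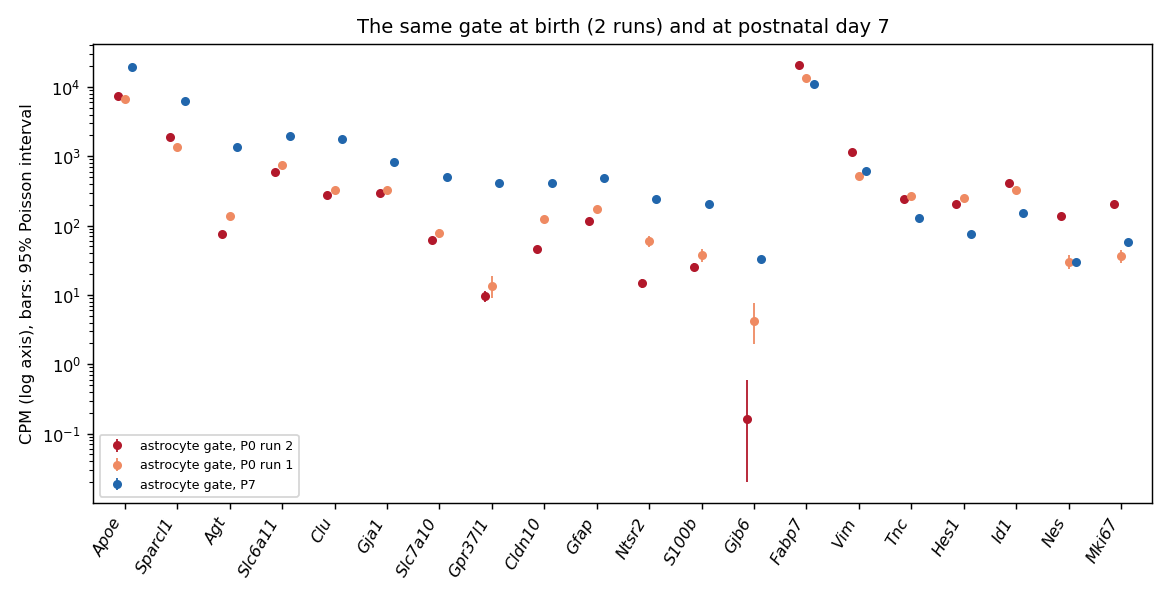
CPM on a log axis (vertical) of 20 genes (horizontal) in the astrocyte gate of P0 run 2, P0 run 1 and P7, with 95% Poisson intervals. Agt, Slc7a10 and Gpr37l1 are low in both P0 runs and high at P7, whereas Mki67 is 208 CPM in run 2 but 36.5 CPM in run 1.

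The 2 runs of P0 differed from each other in more genes than run 2 did from P7. In run 2 against run 1, 658 of 9569 genes were higher (6.88%) and 261 lower (2.73%), 9.6% in either direction, against 5.51% for run 2 against P7. All 10 immediate early genes were higher in run 2, among them Fos at 1815 against 440 CPM and Egr1 at 816 against 85.0 CPM. Of 22 radial and immature glial genes 21 could be tested and 8 were higher, with Vim at 1169 against 522 CPM and Hopx at 77.9 against 13.7 CPM. Mt1 was lower at 1460 against 5587 CPM and Mt2 at 347 against 2515 CPM. Haemoglobin was higher in run 1, with Hbb-bs at 191 against 5.20 CPM. What separates the runs is not stated in the labels. The run 1 gate had 0 cells with Xist, and this comparison used all members, with their 332 Xist cells. Run, depth and sex thus cannot be told apart.

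Against tanycytes of the same run (481 cells with at least 2 UMIs of Rax), 476 of 9809 genes were higher in the members (4.85%) and 340 lower (3.47%). Rax and the astrocyte gate genes chose these groups, so this too is a description. Astrocyte function genes were higher in 27 of 35 tested and lower in 0. Pla2g7 led at 373 against 21.0 CPM, and Gfap was 115 against 5.09 CPM. Gatm, which starts creatine synthesis, was 171 against 19.3 CPM, Adora1, an adenosine receptor, 67.8 against 5.31 CPM, Timp4, a protease inhibitor, 260 against 34.6 CPM, and Fam212b 121 against 8.49 CPM. Cholesterol genes were higher in 13 of 19.

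Glial transcription factors separated the gates. Of 26 genes 25 could be tested, 13 were higher and 2 lower, beside 4.85% and 3.47% of all genes. Olig1 was 388 against 26.3 CPM, a ratio of 14.8 (12.3 to 17.8), and Olig2 165 against 14.4 CPM. The FGF-responsive factors Etv4 and Etv5 were 76.8 against 10.8 CPM and 59.3 against 10.6 CPM. Lhx2, a factor of tanycytes, was lower at 47.7 against 161 CPM. Outside that list, Dbx2, a homeobox gene of the neural tube, was 102 against 5.52 CPM, and Pax6, from the list of radial and immature glia, 55.6 against 15.7 CPM.

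Tanycyte markers were lower in 5 of the 6 tested of 8, and these were Col23a1, Col25a1, Crym, Frzb and Scn7a. Col25a1, a membrane collagen, was 3.30 against 113 CPM, and Crym, a thyroid hormone-binding crystallin, 16.1 against 202 CPM. The other genes with the largest ratios were not on that list. Dlk1 was 74.1 against 1011 CPM and Cdkn1c 58.1 against 792 CPM. Tbx3, a factor of the tuberal hypothalamus, was 7.77 against 108 CPM. Fgf18, a growth factor, was 1.57 against 37.6 CPM, the Wnt receptor Fzd5 10.99 against 97.0 CPM, the proteoglycan Gpc3 12.2 against 108 CPM, the fibrillin Fbn2 3.55 against 60.9 CPM, and Lix1 13.4 against 125 CPM.

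Regional transcription factors divided in both directions. Of 35 genes 23 could be tested: 5 were higher than in tanycytes, among them Nkx2-2, Foxd1, Zic1 and Nr2f1, and 8 were lower, Nkx2-1, Six3, Six6, Lhx2, Tbx3, Fezf2, Dlx1 and Dlx2. Over all 9809 genes 4.85% were higher and 3.47% lower. After thinning, Nr2f1 was detected in 61.3% of members, 19.1% of tanycytes and 12.7% of neurons. Six3, which patterns the anterior forebrain, was detected in 33.9%, 54.9% and 24.7%, and Nkx2-1, of the tuberal hypothalamus, in 10.8%, 36.6% and 26.8%. Nkx2-2 was detected in 12.8%, 1.87% and 1.35%, and Dbx2 in 22.0%, 0.832% and 0.129%. In oligodendrocyte precursors of the run the share was 17.3% for Nkx2-2, above the members, 9.15% for Dbx2 and 34.0% for Nr2f1. Nr2f1 was also detected in 38.2% of the Slc1a3 gate. In cells with exactly 1 UMI of Aqp4 and Aldh1l1, just outside the gate, its share was 59.7%, near that of the members. Foxb1, of the mammillary region, was detected in 10.4%, 5.82% and 10.8%. Members were thus above neurons in Nr2f1, Nkx2-2 and Dbx2, near them in Foxb1, and below them in Nkx2-1. In run 1 Six3 was detected in 16.0% and Nr2f1 in 58.6% of the same gate, so the Six3 share moved between the runs by over 2-fold.

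**Figure D4:**
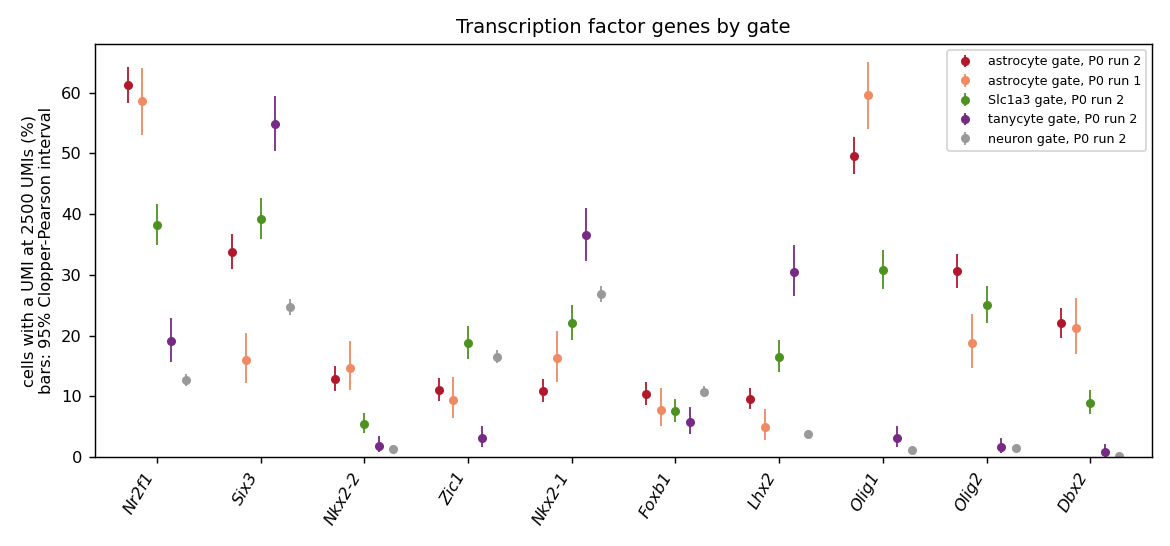
Percent of cells with a UMI after thinning to 2500 UMIs (vertical) for 10 transcription factor genes (horizontal) in 5 gates, with 95% Clopper-Pearson intervals. Nr2f1 reaches 61.3% in newborn astrocytes, 38.2% in the Slc1a3 gate and 19.1% in tanycytes. Lhx2 and Nkx2-1 are highest in tanycytes, and Foxb1 in astrocytes is near neurons.

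The members were not uniform. Among 4610 genes with a mean of at least 0.1 UMI after thinning, the median Fano factor (variance over mean, 1 for pure counting noise) was 1.05. Those with the highest values included Malat1 (46.8), Fabp7 (16.9), Apoe (8.35), Sparcl1 (8.21), Gfap (7.78) and Selenom (7.48). Gfap is the intermediate filament of mature and reactive astrocytes and of the glia limitans under the pia. It had a median of 0 UMIs per member and a maximum of 106, and its 1390 UMIs lay in 170 members.

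Cells with Gfap carried a set of genes. At least 1 UMI was found in 170 members (15.6%, median depth 11464.5 UMIs, against 9699.5 in the other 920). Against those others, 94 of 9584 genes were higher (0.981%) and 24 lower (0.25%). The genes named from this split were chosen after their values were seen. Pla2g3 was 439 against 52.7 CPM, Selenom 2197 against 511 CPM, and Cidea, a lipid droplet protein, 62.5 against 3.01 CPM. Nog, the BMP antagonist noggin, was 161 against 28.8 CPM, Hspb8, a small heat shock protein, 68.6 against 10.2 CPM, and Sparcl1 4095 against 1408 CPM. The gate gene Aqp4 was 957 against 208 CPM, whereas Aldh1l1 was 409 against 323 CPM. Igfbp2, an IGF-binding protein, was lower at 95.8 against 500 CPM, Fam212b at 34.3 against 139 CPM, and Slc7a10 at 25.4 against 69.6 CPM.

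The same split was made in P0 run 1 and at P7, whose cells played no part in choosing the members. In run 1, 85 of 319 cells had Gfap, with 94 of 9295 genes higher (1.01%) and 66 lower (0.71%). At P7, 526 of 1301 had it, with 72 of 9670 higher (0.745%) and 70 lower (0.724%). Pla2g3 was 698 against 216 CPM in run 1 and 318 against 46.3 CPM at P7, and Selenom 1950 against 771 CPM and 587 against 190 CPM. Cidea was 14.7 against 2.31 CPM in run 1 (10 against 4 UMIs) and 62.0 against 2.75 CPM at P7. Igfbp2 was 156 against 458 CPM and 380 against 801 CPM, and Fam212b 23.5 against 73.9 CPM and 42.7 against 106 CPM. These genes pointed the same way in the members, in run 1 and at P7. The members and the run 1 cells belong to 1 sample, and what separates the runs is not stated. Oxt, an oxytocin gene of neurons, was 63.4 against 5.71 CPM in the members but 1.47 against 3.46 CPM in run 1. The secretoglobin Scgb1a1 was 33.8 CPM with Gfap in the members and listed at 0 in run 1 and at P7.

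**Figure D5:**
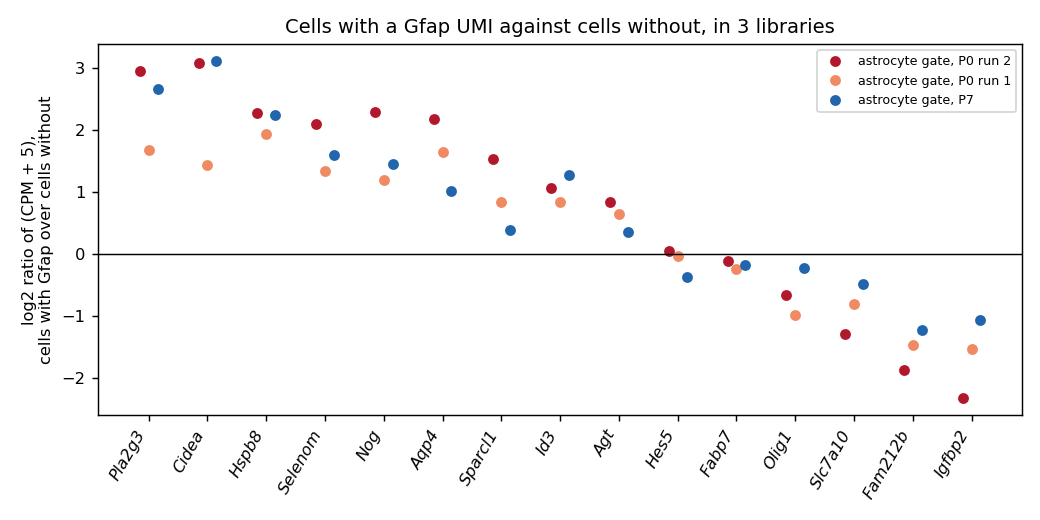
Log2 ratio of (CPM + 5) between cells with and without a Gfap UMI (vertical) for 15 genes (horizontal), with each point a library of the astrocyte gate. Pla2g3, Cidea, Hspb8, Selenom, Nog and Aqp4 are above 0 and Fam212b and Igfbp2 below 0 in all 3 groups.

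Agt marked no such set. Between the 420 members with Agt and the 670 without, 12 of 9601 genes were called (0.125%), Agt itself included, with Gfap and Cidea among the 6 higher. Sex made as little difference: between 563 Y-linked and 332 Xist members 10 of 9589 genes were called (0.104%). Of these 10, Ddx3y, Eif2s3y, Kdm5d, Uty, Xist and its antisense Tsix are sex-linked. The others were Oxt, Fgf15, Scgb1a1 and Gm47283, all named after their values were seen. Whether Gm47283 is sex-linked was not checked.

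Cells with only Aqp4 differed from cells with only Aldh1l1. Between the 81 and 389 cells 179 of 9773 genes were called (1.83%), 121 higher with Aqp4 only and 58 with Aldh1l1 only. With Aqp4 only, the secreted protein gene Clec3b was 121 against 3.27 CPM, Col23a1 103 against 12.6 CPM and Six6 87.2 against 21.5 CPM. With Aldh1l1 only, Slc14a2, a urea transporter, was 90.8 against 15.6 CPM, Gdf10, a BMP-like ligand, 48.5 against 7.81 CPM, and the basement membrane gene Nid1 102 against 22.1 CPM. These named genes lead the calls by ratio and were chosen after their values were seen.

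A further group carried motile cilium genes although the gate allows at most 1 Foxj1 UMI. The list of 8 genes (Enkur, Cfap126, Pifo, Meig1, Tekt1, Lrriq1, Fam183b and Dynlrb2) was chosen after these values were seen. At least 5 UMIs of them were found in 198 members (18.2%), in 45.5% of tanycytes, 29.8% of the Slc1a3 gate, 10.7% of the run 1 gate, 6.69% of the P7 gate, 4.90% of P0 neurons and 1.63% of oligodendrocyte precursors. The share was 40.9% in the cells with exactly 1 UMI of Aqp4 and Aldh1l1, just outside the gate, and 23.8% in P7 neurons, whose median depth was 17616 UMIs. The cut is on raw UMIs, and the part of depth was not tested. In these 198 cells Fabp7 was 11048 CPM against 22737 CPM in the other members, Olig1 137 against 439 CPM, Gfap 26.4 against 133 CPM and Mki67 11.7 against 248 CPM. Vim was 1980 against 1004 CPM, Entpd2, an enzyme that hydrolyses ATP, 142 against 33.5 CPM, and Slc14a2 136 against 25.5 CPM. The gate gene Aqp4 was 111 against 387 CPM and Aldh1l1 220 against 362 CPM. The tanycyte marker Col23a1 was 61.6 against 16.9 CPM, and Six3 and Nkx2-1, both higher in tanycytes than in members, were 271 against 172 CPM and 88.4 against 49.7 CPM. What these values mean for the label of these cells was not tested. Of the 198 cells 85 had the single Foxj1 UMI that the gate allows and 18 had a single Rax UMI. Of the 892 other members 100 and 42 had them. The 8 cilium genes summed to 1044 CPM in the 198 cells, which the cut itself raises. In all 426 cells of the run with at least 2 Foxj1 UMIs they summed to 1512 CPM, and 84.3% of those cells passed the cut.

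Dividing cells formed the remaining difference. By at least 2 raw UMIs over the 6 cell cycle genes, 273 members were cycling (25.05%, median depth 12740 UMIs, against 9251 in the others), and 500 of 9601 genes were called (5.21%), led by the cycle genes that the rule used. Among genes lower in cycling cells were Entpd2 (8.28 against 72.3 CPM) and Gdf10 (1.81 against 33.0 CPM), as well as the cilium genes Enkur (7.76 against 50.4 CPM) and Pifo (3.62 against 30.0 CPM).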

How the data were processed

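Single-cell libraries (10x 3' version 3) came from sorted tdTomato+ hypothalamic cells, 1 sample per age in 1 to 2 runs. The authors deposited 1 table of raw UMI counts per gene and cell, which the values bear out as whole numbers. Per the submitters' processing notes, Cell Ranger 3.0.2, Seurat and mm10 were used; filters and the meaning of the runs are not given in the sources used here. All 43261 deposited cells entered, and 0 columns were left unmapped. Cells were gated on raw UMIs, counts summed per gate and run, and scaled to CPM with Python 3.11.15, numpy 2.4.6, scipy 1.17.1 and scanpy 1.11.5. Shares used cells thinned to 2500 UMIs, with 0 cells left out. Doublets were marked by Scrublet and kept, with an alternative without them. The procedure was tested on simulated data. Gate genes were left out of calls. Named are the 10 genes with the largest ratio in each direction of the 3 comparisons (Poisson intervals not overlapping; no mitochondrial, ribosomal, haemoglobin, sex-linked, Gm or Rik genes), members of lists, and genes said to be chosen later. The members and lists were chosen with earlier results of these data known. Promoter sequences are from RefSeq (GRCm38.p6). Some genes that the naming rule takes are not reported here.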

Additional observations from a re-analysis of the deposited data

Results flagged for a closer look

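Outside the compared groups, the same gate held 15 of 16794 cells in E14 run 2 (0.0893%, 0.0500 to 0.147%). It held 0 cells in E14 run 1 and in both E11 runs. Those 15 cells had Fabp7 at 11383 CPM, Sox9 at 503 CPM and Vim at 4326 CPM. Slc4a4 (36.7 CPM) and Sparcl1 (36.7 CPM) rested on 7 UMIs each. Gfap and Agt were at 0 UMIs, with an upper Poisson limit of 19.3 CPM each. Of the 15 cells 14 had Aldh1l1, 2 had Aqp4 and 8 had the neuronal gene Stmn2. No group had enough samples for a test of outlying samples.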

How the results depend on the processing

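No paired analysis was possible because there is 1 sample per age and no replicate numbers. The counts of called genes depended on the settings. With each cell thinned to 2500 UMIs before gating the gate held 410 cells. With a mean of at least 50 CPM, the calls were 165 higher and 60 lower against the Slc1a3 gate (73.3% higher, against 59.8% in the main setting), 61 and 165 against P7, and 215 and 116 against tanycytes. With a pseudocount of 1 CPM, 373 genes were higher and 308 lower against the Slc1a3 gate, and 288 higher and 507 lower against P7. With run 1 in place of run 2, added after seeing the data, the calls were 88 and 57, and 327 and 682, and the median log2 ratio to P7 moved from 0.02 to −0.10. Unthinned shares were 15.6% for Gfap, 38.5% for Agt, 78.6% for Olig1, 94.8% for Hes5 and 39.5% for the cell cycle genes. The 637 planned values covered 91 pairs of a gene and a comparison, with some genes in more than 1 comparison. Of these values 412 moved by no more than the distance from the middle to the end of the log2 counting interval. The 1 that reversed was Top2a against P7, at −0.016 (log2) without cycling cells, by construction since Top2a defines those cells. Of the 119 added values, which also hold Xist cells and the other comparisons, 6 reversed. All 6 were among the values of run 1 against P7, which are only a part of the 119. They were Hist1h1b (−0.68), Hist1h1e (−1.13), Hist1h2ae (−0.063), Prc1 (−0.51), Mki67 (−0.60) and Top2a (−0.76), and the cause was not tested. Genes under about 10 CPM are limited by depth.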

Other observations

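Of 17 genes of hormone reception and metabolism 8 passed the filter on low values against P7, and of these Agt was called and 7 were not, beside 5.51% of all 9750 genes called in either direction. In run 1 against P7, 2 of 8 were lower, Agt and Ednrb, beside 7.12% of all genes lower. The leptin receptor Lepr had 0.0826 CPM, the oestrogen receptor Esr1 0.413 CPM and the deiodinase Dio2 0.744 CPM, the last against 14.22 CPM in tanycytes of the same run. In the members a count of 3 UMIs equals 0.248 CPM, and Lepr lay below that. The glucocorticoid receptor Nr3c1 was 72.8 CPM in P0 run 2, 49.7 CPM in P0 run 1 and 99.5 CPM at P7, and the endothelin receptor Ednrb 759, 702 and 1439 CPM.

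Thrombospondins, which act on synapses, were uneven: Thbs3 was 55.1 CPM in run 2, 120 CPM in run 1 and 55.0 CPM at P7, whereas Thbs1, Thbs2 and Thbs4 were at 3.30, 0.0826 and 0.248 CPM in the members. Thbs2 lay below the level of 3 UMIs there, and Thbs4 at it. Gpc5, a glypican, was 5.12 and 5.39 CPM in the P0 runs and 61.1 CPM at P7, and Gpc6 63.8, 34.8 and 53.0 CPM.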
